A study of Mus musculus with 2 samples.

Results

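Red cell barcodes are the droplets whose transcripts were more than 50% haemoglobin: every barcode of both libraries was taken in which the genes named Hba-, Hbb- or Hbq together made up over 50% of the UMIs (unique molecular identifiers, each counting 1 captured transcript), with no minimum on the number of genes. They were thus chosen by their measured globin UMIs, and that share is a description, not a result. There were 1990 of them among 8765 barcodes. They numbered 1148 of 4779 barcodes in the library labelled knockout and 842 of 3986 in the library labelled control. The study profiled dissociated C57BL/6 mouse pancreas at embryonic day 18.5 by droplet 3' RNA sequencing (10x Chromium, version 2 chemistry). It compared 1 pancreas that the series calls Dpy30∆P with 1 control pancreas. The labels give neither the alleles of either embryo nor the driver or cells of the deletion. Both samples were digested with trypsin for 20 min and 17.4 µL of suspension was loaded, aimed at 10000 cells. Pellets had first been resuspended in 250 µL (knockout) and 500 µL (control). With 1 library per group no difference below has a replicate check, and every interval is a 95% interval that covers counting error only.

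Red cells carry oxygen in haemoglobin, a tetramer of alpha-type and beta-type globin chains that each hold a haem group. In the fetus they come mainly from the liver, where erythroblasts fill with globin transcripts, switch off most other genes and expel the nucleus. The reticulocytes that remain clear their mitochondria and lose their RNA in the circulation. The embryonic globins belong to the earlier red cells of the yolk sac, and the adult globins to those of the fetal liver and bone marrow.

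Dpy30 (ENSMUSG00000024067, chromosome 17, 74299474 to 74323944, GRCm38), a subunit of histone methyltransferase complexes, had 10 UMIs in the red cell barcodes labelled knockout and 2 UMIs in those labelled control. In the other barcodes with at least 500 detected genes it stood at 145 CPM (UMIs per 1000000 non-globin UMIs) in the library labelled knockout and at 113 CPM in the library labelled control. The gene was therefore not lower in these sums of the library labelled knockout. The other barcodes pool all cell types, so the sums do not show whether the cells of the deletion lost the gene. Whether the 3' tags counted here lie outside the deleted part was not tested. Xist, the RNA of the inactive X chromosome, had 88 UMIs over 29 red cell barcodes labelled knockout and 0 UMIs in those labelled control, so sex and genotype cannot be told apart. The libraries held 33048640 and 25398522 UMIs (knockout, control), the lowest total of any barcode was 500 UMIs in both, and 27 barcode sequences occurred in both libraries, of which 2 were red cell barcodes in both.

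The red cell barcodes carried 4 globin transcripts almost alone, so the stretches before the starts of globin genes are shown to set the 2 adult beta-type genes beside each other, beside an embryonic one and beside an alpha-type one. The sequences are from RefSeq (GRCm38.p6) and cover the 120 bases before the annotated start, 5′ to 3′ on the gene's strand: Hbb-bs at chr7:103827929-103828048 (minus strand), Hbb-bt at chr7:103813924-103814043 (minus), Hbb-y at chr7:103853208-103853327 (minus) and Hba-a1 at chr11:32283552-32283671 (plus). Capitals mark, on either strand, the motif CACCC (the kind bound by the erythroid factor KLF1) and the common promoter boxes CCAAT and TATAA; no base is shared by 2 marked motifs.
Hbb-bs: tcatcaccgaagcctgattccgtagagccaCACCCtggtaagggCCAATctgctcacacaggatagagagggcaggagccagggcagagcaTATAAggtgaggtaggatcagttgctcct
Hbb-bt: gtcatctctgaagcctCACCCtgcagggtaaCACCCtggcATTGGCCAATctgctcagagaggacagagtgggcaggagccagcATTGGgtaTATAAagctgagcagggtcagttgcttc
Hbb-y: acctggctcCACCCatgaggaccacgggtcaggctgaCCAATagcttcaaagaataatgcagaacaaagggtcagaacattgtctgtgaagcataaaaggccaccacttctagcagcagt
Hba-a1: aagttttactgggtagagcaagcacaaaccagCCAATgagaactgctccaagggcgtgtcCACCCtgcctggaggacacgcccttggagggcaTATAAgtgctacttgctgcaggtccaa
Hbb-bs had 1 CACCC and 1 CCAAT, and Hbb-bt had 2 CACCC and 3 CCAAT, 2 of these on the other strand (ATTGG). Of 32851 RefSeq promoter windows of the same length, 31.7% held CACCC, 21.3% held CCAAT and 11.8% held TATAA on either strand. AGATAA, also searched on both strands, is not in these 4 windows and is in 4.36% of all windows. The windows of Hbb-bs and Hbb-bt were identical at 93 of 124 aligned positions, and those of Hba-a1 and its copy Hba-a2 at 117 of 123.

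The share of red cell barcodes was 24.0% (22.8 to 25.3, Clopper-Pearson) in the library labelled knockout and 21.1% (19.9 to 22.4) in the library labelled control, a ratio of 1.14 (1.05 to 1.23, Katz). No barcode held under 500 UMIs, and the share depends on where that limit lies: red cell barcodes of 1000 UMIs or more made up 19.9% of all barcodes (knockout) and 17.0% (control), a ratio of 1.17 (1.07 to 1.28). They held 12.4% of all UMIs of the library labelled knockout and 11.4% of those of the library labelled control. Of all globin UMIs, 94.3% and 95.8% lay in them (knockout, control).

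By the rule each had over 50% globin, but nearly all lay far above it. The median globin share was 96.5% in the library labelled knockout and 96.7% in the library labelled control, and 95.9% and 96.8% of the red cell barcodes (knockout, control) exceeded 90%. Between 50% and 90% there were 47 barcodes labelled knockout and 27 labelled control, and between 30% and 50% there were 42 and 18. The barcodes just inside the rule had 50.5% (knockout) and 53.5% globin (control), and those just outside had 47.8% (knockout) and 49.3% (control).

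**Figure D1:**
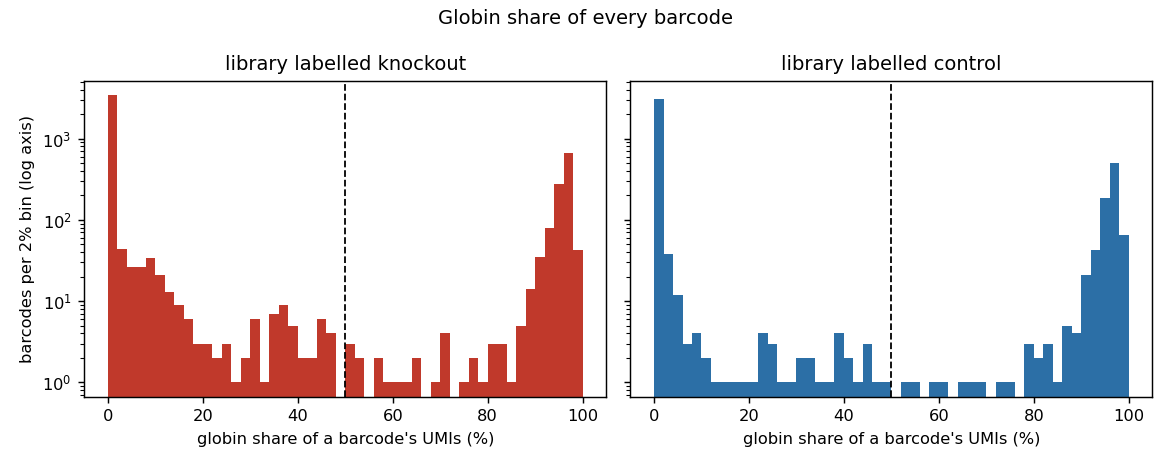
Globin share of the UMIs of every barcode (x axis, %, bins of 2%) against the number of barcodes (log axis), for the library labelled knockout (left) and the library labelled control (right). The dashed line is the rule at 50%: the 1148 and 842 red cell barcodes to its right gather above 90%, with few barcodes between.

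They were shallow in genes. The median red cell barcode had 2819 UMIs and 60 detected genes (knockout), and 2679 UMIs and 52 genes (control). The other barcodes had medians of 2135.5 and 2218 genes (knockout, control), but these were required to have at least 500 genes. That limit left out 329 barcodes labelled knockout and 452 labelled control, so part of the gap follows from it. The median number of non-globin UMIs per red cell barcode was 84 in the library labelled knockout and 79 in the library labelled control. After each barcode was thinned to 1000 UMIs, the median was 31 genes in the 953 deep enough barcodes labelled knockout and 28 in the 679 labelled control (195 and 163 shallower ones were left out). Only 12 red cell barcodes labelled knockout and 4 labelled control had at least 500 genes.

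The label was checked against red cell markers. Alas2, the red cell form of the first enzyme of haem synthesis, had a UMI in 70.1% of red cell barcodes labelled knockout and 73.3% of those labelled control. In barcodes gated as mesenchymal by collagen transcripts, with higher medians of 5578.5 and 5803 UMIs, the share was 1.41% (knockout) and 1.23% (control). Slc4a1, the anion exchanger band 3, was found in 4.79% and 2.85% of red cell barcodes (knockout, control) and Bpgm, which makes 2,3-bisphosphoglycerate, in 36.1% and 31.0%.

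Among the globins, Hbb-bs, an adult beta chain, made up 43.5% of the globin UMIs of red cell barcodes labelled knockout and 43.9% of those labelled control. The adult alpha chain Hba-a1 made up 33.5% (knockout) and 34.6% (control), and its copy Hba-a2 made up 11.0% and 11.3%. The second adult beta chain, Hbb-bt, made up 12.03% in the library labelled knockout and 10.17% in the library labelled control. Each transcript is tagged once at its 3' end, so these shares of UMIs are not scaled by length. The coding sequences of Hbb-bs and Hbb-bt are identical at 443 of 444 positions and those of Hba-a1 and Hba-a2 at 428 of 429, but the last 200 bases of the annotated transcripts, where the tags lie, were 79.4% and 84.7% identical. The handling of reads that fit both copies is not stated, which leaves the share of each copy uncertain.

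The balance of chains was close between the libraries. Alpha-type globin made up 44.5% of adult globin UMIs in the library labelled knockout and 45.9% in the library labelled control. Within the alpha type, Hba-a2 held 24.6% in both. Single barcodes spread more widely: from the 5th to the 95th percentile, the alpha share ran from 34.5% to 58.4% in red cell barcodes labelled knockout and from 32.2% to 57.4% in those labelled control. In the deepest barcodes, with 8000 UMIs or more, it ran from 40.1% to 48.8% (knockout) and from 41.7% to 48.6% (control).

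The balance of the 2 adult beta chains differed with depth. Hbb-bt made up 21.7% of adult beta-type UMIs (21.6 to 21.7, exact binomial) in the library labelled knockout and 18.8% (18.7 to 18.9) in the library labelled control, a ratio of 1.15. In barcodes of 500 to 1000 UMIs the Hbb-bt share was 5.93% in the library labelled knockout and 3.92% in the library labelled control. From 1000 to 2000 UMIs it was 8.13% (knockout) and 6.61% (control), and from 2000 to 4000 UMIs it was 19.9% (knockout) and 16.1% (control). From 4000 to 8000 UMIs it was 23.1% (knockout) and 20.8% (control), and from 8000 UMIs it was 28.1% (knockout) and 25.2% (control). Deeper barcodes thus had the higher Hbb-bt share in both libraries, and the library labelled knockout was above the library labelled control in 5 of 5 bands. These depth bands were chosen after the data had been seen. Across barcodes, Spearman's rho between UMIs and the Hbb-bt share was 0.807 (n = 1148, knockout) and 0.841 (n = 842, control), given as a description, since the barcodes of a library share 1 embryo and 1 preparation.

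**Figure D2:**
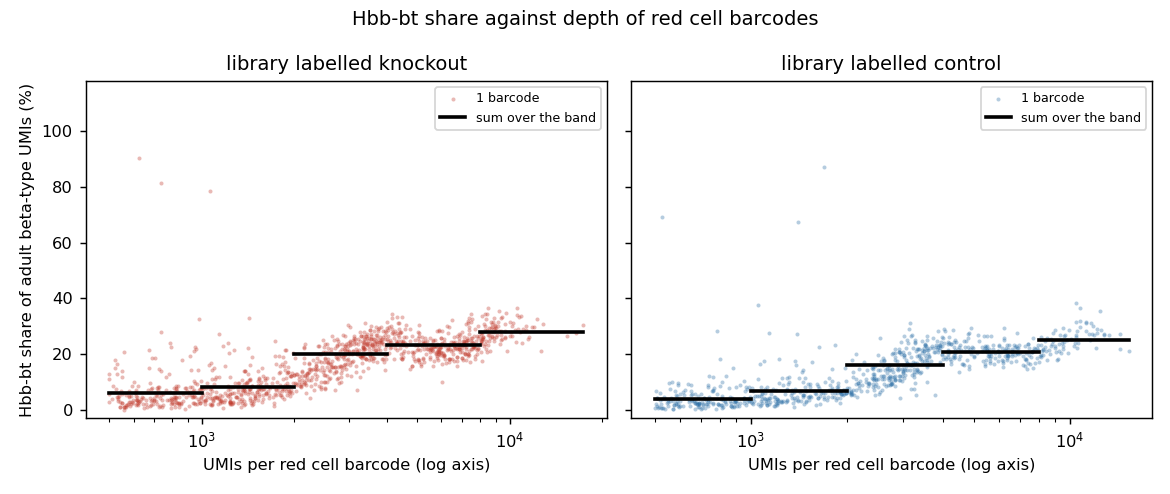
Share of Hbb-bt among adult beta-type globin UMIs (y axis, %) against the UMIs of each red cell barcode (x axis, log scale), for the library labelled knockout (left) and the library labelled control (right). Points are barcodes and black bars are the summed share of a depth band; the bars run from 5.93% to 28.1% (knockout) and from 3.92% to 25.2% (control), and 3 barcodes in each library lie above 50%.

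The embryonic globins were nearly confined to 3 barcodes. Hbb-y, Hba-x and Hbb-bh1, the yolk sac beta-type and alpha-type chains, had 1066 UMIs in all red cell barcodes labelled knockout, of which 957 lay in 2 barcodes. They had 1135 UMIs in those labelled control, of which 1116 lay in 1 barcode. The first barcode labelled knockout had 508 Hbb-y, 113 Hba-x, 186 Hba-a1, 29 Hbb-bt and 8 Hbb-bs UMIs, and embryonic chains were 70.2% of its globin. The second had 309 Hbb-y, 22 Hba-x, 136 Hba-a1, 22 Hbb-bt and 5 Hbb-bs UMIs, with 63.5% embryonic. The barcode labelled control had 924 Hbb-y, 191 Hba-x, 276 Hba-a1, 47 Hbb-bt and 7 Hbb-bs UMIs, with 72.4% embryonic. In all 3, Hbb-bt exceeded Hbb-bs, the reverse of the summed order, and Alas2 had 0, 0 and 1 UMIs. They held only 179, 211 and 155 non-globin UMIs, so few Alas2 UMIs could be counted in them. Hbb-bt also exceeded Hbb-bs in some shallow barcodes without embryonic chains. In the other red cell barcodes 109 embryonic UMIs were left in the library labelled knockout and 19 in the library labelled control. Of the 109, 66 were Hbb-bh1 UMIs of 1 barcode that had no Hbb-y or Hba-x UMI. Without the 3 embryonic-led barcodes the embryonic share of globin was 0.00280% in the library labelled knockout and 0.000688% in the library labelled control, against 0.0274% and 0.0411% with them, so the 3 barcodes turn the direction.

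Another 3 barcodes labelled knockout and 2 labelled control had over 80% alpha-type globin without embryonic chains. The most extreme barcode labelled knockout had 453 Hba-a1, 114 Hba-a2, 19 Hbb-bt and 2 Hbb-bs UMIs. The most extreme labelled control had 390 Hba-a1, 93 Hba-a2, 9 Hbb-bt and 4 Hbb-bs UMIs. All 5 were shallow, with 529 to 1409 UMIs.

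Beyond globin, the red cell barcodes held 204309 non-globin UMIs in the library labelled knockout and 121248 in the library labelled control. Of 538 non-globin genes with at least 50 UMIs in them, 174 stood more than 2-fold above the other barcodes in both libraries (32.3% of those tested) and 106 more than 2-fold below in both (19.7%). On a total that keeps the globin UMIs the split was 30 above and 450 below, so these ratios are relative to non-globin RNA. Of the 174, 76 were more than 10-fold and 16 more than 100-fold above. The minimum of 50 UMIs favours genes abundant in red cell barcodes (with a minimum of 20 UMIs the split was 235 above and 291 below), so the counts of enriched members below are descriptions.

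Among the genes furthest above the other barcodes were those of the red cell membrane, haem and late maturation. Alas2 (ENSMUSG00000025270, chromosome X) stood at 23210 CPM against 15.0 CPM (knockout) and at 30178 CPM against 11.3 CPM (control). It was 1549-fold above in the library labelled knockout and 2679-fold in the library labelled control. Rec114, a factor of meiotic recombination, was also among the leading genes, at 1694 CPM against 2.46 CPM (knockout) and 3027 CPM against 0.908 CPM (control).

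**Figure D3:**
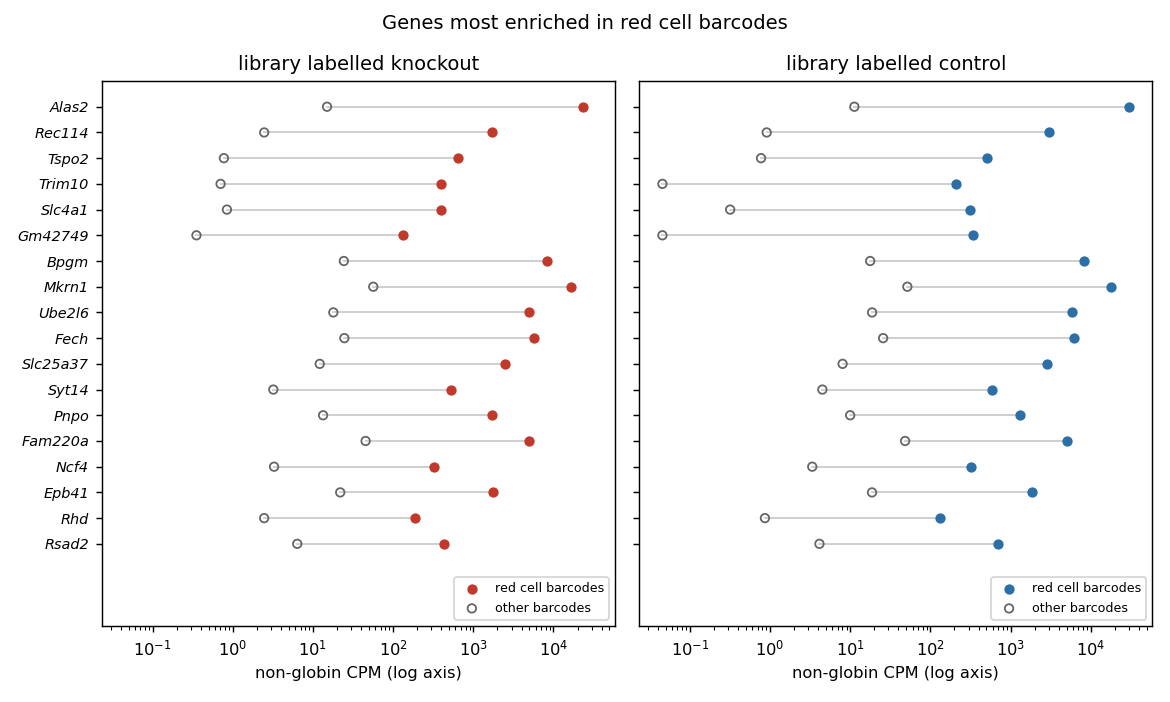
Non-globin CPM (x axis, log scale) of 18 of the genes most enriched in red cell barcodes (filled) over other barcodes with at least 500 genes (open), in the library labelled knockout (left) and the library labelled control (right). Genes run from Alas2, 1549-fold above in the library labelled knockout and 2679-fold in the library labelled control, to Rsad2, 68.4-fold and 168-fold.

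Of 10 genes of haem synthesis, 5 had at least 50 UMIs and 3 of those were enriched in both libraries: Alas2, Fech and Urod. Fech, which puts iron into the ring, stood at 5697 CPM in red cell barcodes labelled knockout and 6202 CPM in those labelled control. Of 12 genes of iron uptake and storage, 3 had enough UMIs and all 3 were enriched: the ferritin chains Ftl1 and Fth1 and the mitochondrial iron carrier Slc25a37. Ftl1 was the non-globin transcript with most UMIs in the library labelled knockout, at 44766 CPM there and 56438 CPM in the library labelled control. Tfrc, the transferrin receptor by which erythroblasts take up iron, had 3 UMIs (knockout) and 2 UMIs (control).

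Of 22 membrane and skeleton genes, 5 could be tested and 5 were enriched, among them Tspo2, Slc4a1, Epb41 (protein 4.1) and Rhd (a Rhesus protein). Of 13 red cell enzymes, 7 could be tested and 7 were enriched. Among these, Bpgm stood at 8242 CPM (knockout) and 8355 CPM (control), the peroxidase Gpx1 at 10357 CPM (knockout) and 8627 CPM (control), and the peroxiredoxin Prdx2 at 6074 CPM (knockout) and 5303 CPM (control). Of 21 genes of late maturation and organelle clearance, 15 could be tested and 13 were enriched, among them the ubiquitin ligase Mkrn1, the conjugating enzyme Ube2l6 and Bnip3l, which marks mitochondria for removal. Bnip3l had a UMI in 43.9% of red cell barcodes of both libraries.

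The regulators that make a red cell had few UMIs. The 17 erythroid regulators summed to 143 UMIs (knockout) and 57 UMIs (control), which is 699.9 and 470.1 CPM, against 182 and 209.5 CPM in the other barcodes. Of these 17 only Lmo2, a bridging factor of the GATA1 complex, reached 50 UMIs, with 61 UMIs in the library labelled knockout and 22 UMIs in the library labelled control, and it was 37.2-fold (knockout) and 16.0-fold (control) above the other barcodes. Gata1 itself had 2 UMIs (knockout) and 0 UMIs (control). None of 20 S phase genes reached 50 UMIs. Their 20 members together had 41 UMIs (knockout) and 27 UMIs (control), which is 201 and 223 CPM, against 839 and 950 CPM in the other barcodes. Of 20 genes of G2 and M phase, 3 could be tested. The ubiquitin enzyme Ube2c, with 416 UMIs (knockout) and 220 UMIs (control), was 19.7-fold and 15.3-fold above the other barcodes, and the spindle protein Nusap1 was 17.0-fold and 13.7-fold above. The third, the chromatin protein Hmgb2, stood below the other barcodes, at 210.5 CPM against 545 CPM (knockout) and 82.5 CPM against 604 CPM (control). The proliferation marker Mki67 had 13 UMIs (knockout) and 5 UMIs (control), and 4 of the 13 lay in 1 barcode.

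Markers of other blood cells were at or near 0. All 8 lymphocyte markers had 0 UMIs in red cell barcodes of both libraries. They were scarce in the other barcodes too, at 8.73 CPM (knockout) and 15.1 CPM (control), so few UMIs could be counted. Of 8 platelet markers 7 were at 0 and Pf4 had 6 UMIs (knockout) and 4 UMIs (control). Together the 8 stood at 29.4 and 33.0 CPM (knockout, control), against 165 and 169 CPM in the other barcodes. The 10 macrophage markers summed to 12 UMIs (knockout) and 5 UMIs (control), with 4 at 0. That is 58.7 and 41.2 CPM, against 404 and 430 CPM in the other barcodes. The 10 granulocyte and mast cell markers summed to 3 and 4 UMIs, with 7 at 0. That is 14.7 and 33.0 CPM, against 130 and 71.0 CPM in the other barcodes. Outside the blood cells, the 10 endothelial transcripts summed to 34 UMIs (knockout) and 10 UMIs (control). They stood at 166 and 82.5 CPM, against 280 and 582 CPM in the other barcodes, and were thus not near 0 on this scale.

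Acinar transcripts and Ins2 were spread thinly over the red cell barcodes, while other transcripts of pancreatic cells were more gathered. Of 772 UMIs of the endocrine list in red cell barcodes labelled knockout, 410 lay in 1 barcode. Of 800 UMIs of the mesenchymal list there, 138 lay in another. The 20 acinar transcripts, which encode digestive enzymes, gave 5.83 UMIs per red cell barcode in the library labelled knockout and 2.50 in the library labelled control. By depth band the mean lay between 5.34 and 7.11 (knockout) and between 1.99 and 3.27 (control), although the barcodes of the bands differed many-fold in UMIs. Ctrb1, chymotrypsinogen, had a UMI in 78.8% of red cell barcodes labelled knockout and 51.9% of those labelled control. Ins2, insulin, ran the other way, with a UMI in 12.4% (knockout) and 41.7% (control). In mesenchymal-gated barcodes, which were chosen by collagen transcripts, acinar transcripts gave 18.7 (knockout) and 7.32 UMIs (control) per barcode. The part of RNA from other cells in each result below was not tested.

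Nuclear RNA was low and uneven. Malat1, retained in the nucleus, stood at 8277 CPM in red cell barcodes labelled knockout and 9089 CPM in those labelled control, against 22224 and 27230 CPM in the other barcodes (knockout, control). A UMI was found in 21.6% (knockout) and 24.3% (control) of red cell barcodes. The 12 and 4 barcodes with at least 500 genes held 60.7% and 62.4% of all Malat1 UMIs (knockout, control). Without those barcodes Malat1 stood at 4166 CPM (knockout) and 4041 CPM (control), which turns its ratio to 1.03 (0.911 to 1.17), against 0.911 (0.844 to 0.983) with them.

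These gene-rich barcodes mixed globin with transcripts of other cells. They had 524 to 2001 genes and 50.5% to 80.9% globin in the library labelled knockout, and 1325 to 2134 genes and 53.5% to 68.1% in the library labelled control. They held 21.9% of the non-globin UMIs of red cell barcodes labelled knockout and 15.5% of those labelled control. At least 10 UMIs of Meg3, a nuclear RNA, were in 7 of 12 (knockout) and 4 of 4 (control), and 50 or more UMIs of the 10 mesenchymal transcripts were in 7 of 12 (knockout) and 3 of 4 (control). The barcode labelled knockout with most genes had 184 Sst UMIs, the hormone of delta cells, 58 Meg3 UMIs and 17 Alas2 UMIs. The 2 barcodes labelled knockout with fewest genes differed from these: they had 0 mesenchymal UMIs, 35 and 36 Car2, 40 and 81 Mt1 and 42 and 65 Gpx1 UMIs, and the one with 35 Car2 UMIs had 4 Mki67 UMIs. No doublet caller was run, and these barcodes are kept in all values unless stated.

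Mitochondrial transcripts made up 5.80% of non-globin UMIs (5.70 to 5.90) in the library labelled knockout and 6.03% (5.89 to 6.16) in the library labelled control, against 2.90% and 2.95% in the other barcodes. The median red cell barcode was below the sum over red cell barcodes, at 2.413% (knockout) and 3.001% (control). The medians of the other barcodes were 2.618% (knockout) and 2.747% (control). The red cell median was thus lower than theirs in the library labelled knockout and higher in the library labelled control. No mitochondrial UMI was found in 24.9% and 22.3% of red cell barcodes (knockout, control). The 4 red cell barcodes with most mitochondrial UMIs held 25.6% of these UMIs in the library labelled knockout and 12.7% in the library labelled control. The most extreme, labelled knockout, had 1120 mitochondrial among 1203 non-globin UMIs. Without those 4 barcodes of each library the shares were 4.39% (knockout) and 5.55% (control). Over all red cell barcodes the ratio of the shares, knockout over control, was 0.963 (0.925 to 1.002), an interval that includes 1. In red cell barcodes under 500 genes the ratio lay above 1, at 6.74% (knockout) and 6.61% (control). It also did so with the rule at 30% globin, at 4.83% (knockout) and 4.57% (control).

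The non-globin content differed with depth within each library. Alas2 stood at 4077 CPM (knockout) and 8681 CPM (control) in barcodes of 500 to 1000 UMIs. It was highest from 2000 to 4000 UMIs, at 38909 CPM (knockout) and 46713 CPM (control), and stood at 16016 CPM (knockout) and 20056 CPM (control) from 8000 UMIs. Gpx1 lay elsewhere, with 1082 CPM (knockout) and 2493 CPM (control) from 2000 to 4000 UMIs and 15336 CPM (knockout) and 15314 CPM (control) from 8000 UMIs. Car2, carbonic anhydrase, was likewise higher in the deepest barcodes, with 127 CPM (knockout) and 219 CPM (control) from 2000 to 4000 UMIs and 4149 CPM (knockout) and 1724 CPM (control) from 8000 UMIs. Ribosomal protein transcripts made up 32.7% (knockout) and 38.3% (control) of non-globin UMIs in the shallowest band, and 24.1% (knockout) and 25.7% (control) in the deepest. Acinar transcripts were 11.5% (knockout) and 5.04% (control) of non-globin UMIs in the shallowest band and 0.878% (knockout) and 0.374% (control) in the deepest. The deepest band holds all 4 gene-rich barcodes labelled control, with 18786 of its 48713 non-globin UMIs. It also holds most of the 12 labelled knockout, which had 44684 non-globin UMIs in all, beside 80984 in that band. Its CPM values thus include much RNA of other cells, and values by band without these barcodes were not computed.

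**Figure D4:**
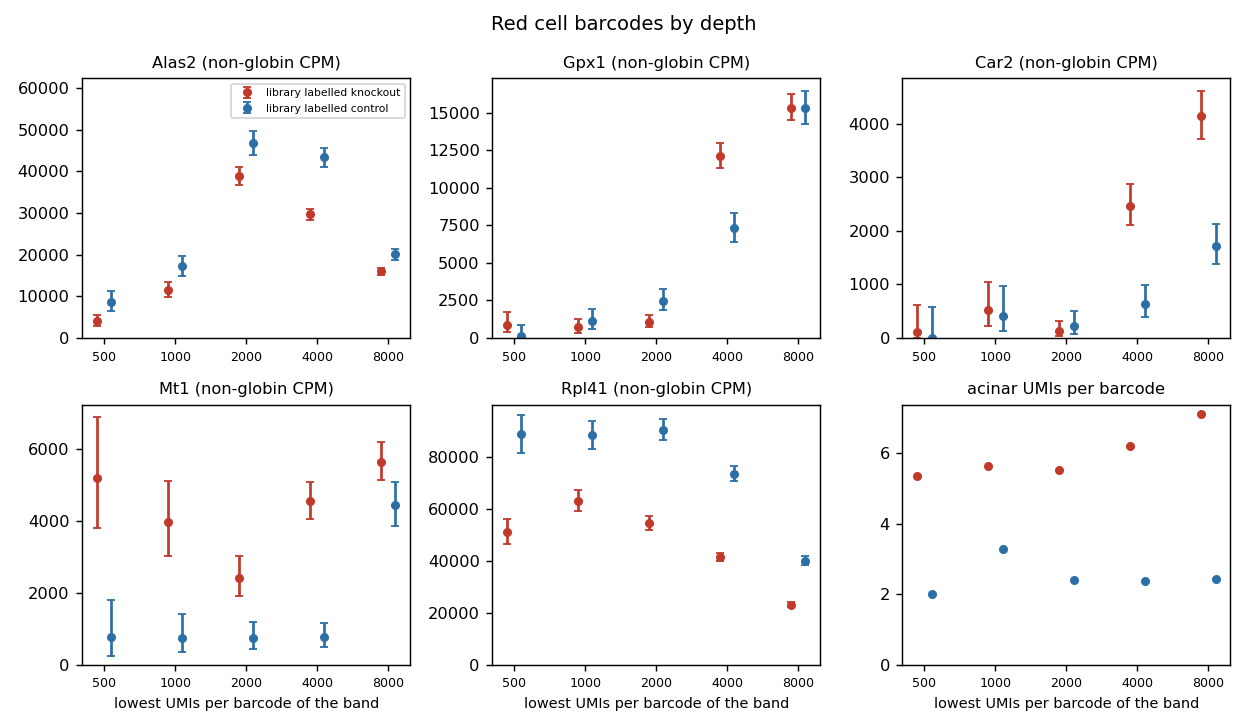
Non-globin CPM of Alas2, Gpx1, Car2, Mt1 and Rpl41, and acinar UMIs per barcode, in red cell barcodes by depth band (x axis, lowest UMIs of the band), for the library labelled knockout (red, left of each pair) and the library labelled control (blue, right). Bars are exact Poisson 95% intervals. Alas2 peaks from 2000 to 4000 UMIs, and Gpx1 and Car2 are highest in barcodes from 4000 UMIs. Acinar UMIs per barcode stay between 5.34 and 7.11 (knockout) and 1.99 and 3.27 (control). The band from 8000 UMIs holds all 4 barcodes labelled control with at least 500 genes and most of the 12 labelled knockout.

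The question of the design is what differed between the libraries. Of the 538 genes, 37 were more than 2-fold higher in red cell barcodes labelled knockout than in those labelled control (6.88%) and 6 were more than 2-fold lower (1.12%), 43 in all (7.99%). The median log2 ratio over all 538 genes was 0.23, and over the 174 enriched ones 0.05. On a total without mitochondrial, ribosomal protein and acinar UMIs the split was 22 higher and 8 lower of 424 genes, and with median-of-ratios scaling it was 30 higher and 14 lower. Only 6 of the 37 higher and 3 of the 6 lower genes were enriched in red cell barcodes in both libraries. Of the 37, 10 were acinar or endocrine transcripts from the lists used here, and the rest were on neither list. Of the 538 genes tested, 18 were on the acinar list and 7 on the endocrine list.

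Among the haem enzymes, 2 of the 5 tested were past 2-fold higher, and the median log2 ratio was 0.72. Alad, an early enzyme of the path, had 57 UMIs (knockout) and 11 UMIs (control), a ratio of 3.08 (1.60 to 6.50). Alas2 had 4742 UMIs in 1148 red cell barcodes labelled knockout and 3659 UMIs in 842 labelled control. Per non-globin UMI its ratio was 0.769 (0.736 to 0.803), and it was below 1 in all 5 depth bands (0.470 to 0.833). The ratio depends on this total: non-globin UMIs were 204309 of 4098780 UMIs (knockout) and 121248 of 2885821 UMIs (control). At least 1 Alas2 UMI was found in 70.1% (knockout) and 73.3% (control) of red cell barcodes.

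Of the 7 red cell enzymes tested, only Car2 was past 2-fold, and their median log2 ratio was 0.26. Car2 had 516 UMIs in 10.4% of red cell barcodes labelled knockout and 114 UMIs in 6.18% of those labelled control, and stood at 2526 CPM (knockout) and 940 CPM (control), a ratio of 2.69 (2.19 to 3.32). Its ratio was 1.28 (0.368 to 4.96) from 1000 to 2000 UMIs and 0.582 (0.115 to 2.70) from 2000 to 4000 UMIs. It was 3.84 (2.41 to 6.45) from 4000 to 8000 UMIs and 2.41 (1.89 to 3.09) from 8000 UMIs. None of the 5 membrane genes tested passed 2-fold, and their median log2 ratio was 0.36. None of the 15 tested genes of late maturation and organelle clearance passed 2-fold, and their median log2 ratio was 0.00.

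Mt1, metallothionein, which binds zinc and copper, stood at 4635 CPM in red cell barcodes labelled knockout and 2235 CPM in those labelled control, a ratio of 2.07 (1.81 to 2.38). In barcodes below 8000 UMIs its ratio lay between 3.25 and 6.68, and from 8000 UMIs it was 1.27 (1.08 to 1.503). Mt1 was also higher in the other barcodes of the library labelled knockout, at 2527 CPM there and 963 CPM in the library labelled control. Gm10709 had 60 UMIs in the library labelled knockout and 0 in the library labelled control, at least 11.9-fold higher against a floor of 3 counts over the group. In the other barcodes it stood at 7.95 CPM (knockout) and 0.470 CPM (control). Pepd, a dipeptidase, had 48 UMIs (knockout) and 8 UMIs (control), a ratio of 3.56 (1.67 to 8.72), and Yipf4, a Golgi protein, had 111 UMIs (knockout) and 26 UMIs (control), a ratio of 2.53 (1.64 to 4.05).

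Transcripts of other cell types were also among the genes furthest apart. Of 18 acinar transcripts tested, 9 were past 2-fold higher in red cell barcodes labelled knockout and none lower, with a median log2 ratio of 1.09. The 20 together made up 3.27% of non-globin UMIs in red cell barcodes labelled knockout and 1.74% in those labelled control, and in the other barcodes 4.46% (knockout) and 1.03% (control). Cela1, an elastase, had 305 UMIs (knockout) and 30 UMIs (control), a ratio of 6.03 (4.14 to 9.10), and Try4, a trypsinogen, had 107 UMIs (knockout) and 11 UMIs (control). The trypsinogens Try4, Try5, Prss3 and Gm10334 are near copies, so their split is uncertain. Ins2 had 162 UMIs (knockout) and 649 UMIs (control), a ratio of 0.148 (0.124 to 0.176), and Ins1 had a ratio of 0.149 (0.110 to 0.199). Both were also lower in the other barcodes labelled knockout, where Ins2 stood at 4082 CPM (knockout) and 27571 CPM (control) and Ins1 at 1909 CPM (knockout) and 12928 CPM (control). Sst had 193 UMIs (knockout) and 2 UMIs (control), and 184 of the 193 lay in 1 barcode. These were the 3 past 2-fold among 7 endocrine transcripts tested, 1 higher and 2 lower.

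The remaining lists held few tested members. Of 10 mesenchymal transcripts 7 could be tested, and none passed 2-fold between the libraries (median log2 ratio 0.42), and of 10 ductal transcripts 2 could be tested and none passed. The 3 tested iron genes and the 3 tested stress genes (Fos, Hspa8 and Jun, of 12) did not pass 2-fold, nor did Lmo2. Of the nuclear RNAs 4 could be tested and Xist passed, and of the G2 and M phase genes Hmgb2 passed, with 43 UMIs (knockout) and 10 UMIs (control), 13 of the 43 in 1 barcode. None of 14 TrxG complex members reached 50 UMIs, and they summed to 41 UMIs (knockout) and 18 UMIs (control).

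Lower in the library labelled knockout was Gm42418, with 208 UMIs there and 334 UMIs in the library labelled control, a ratio of 0.370 (0.309 to 0.441). Rec114 had 346 UMIs (knockout) and 367 UMIs (control), a ratio of 0.559 (0.482 to 0.650), and lay between 0.495 and 0.745 in the 5 depth bands. Gm42749, one more transcript found mainly in red cell barcodes, had 27 UMIs (knockout) and 41 UMIs (control), a ratio of 0.391 (0.231 to 0.651). The ribosomal protein transcript Rpl41 stood at 38173 CPM (knockout) and 65568 CPM (control), a ratio of 0.582 (0.564 to 0.601), and between 0.563 and 0.715 in the bands. In the other barcodes Rpl41 stood at 11919 CPM (knockout) and 10972 CPM (control), so it was not lower there.

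**Figure D5:**
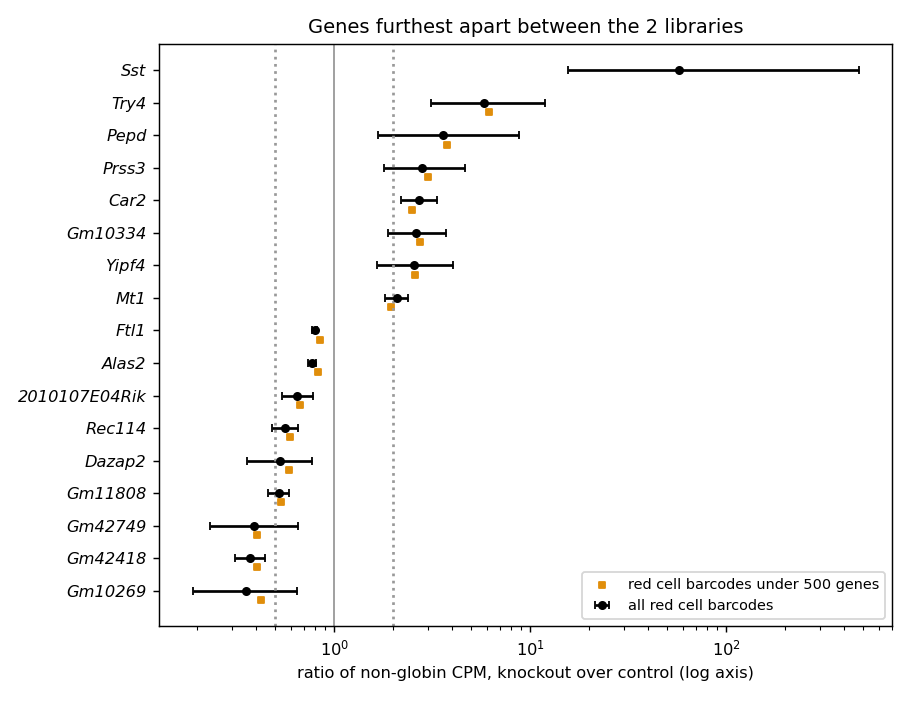
Ratio of non-globin CPM in red cell barcodes, knockout over control (x axis, log scale), for genes among the furthest apart by the interval bound nearest 1 of those enriched in at least 1 library; Gm10709, with 0 UMIs in the library labelled control, is left out. Circles with bars are all red cell barcodes with exact 95% intervals, orange squares the red cell barcodes under 500 genes where the library labelled control had at least 3 UMIs, and dotted lines mark 2-fold; Sst, at 57.3 (15.6 to 476) from 193 UMIs (knockout), 184 of them in 1 barcode, and 2 UMIs (control), has no square.

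Globin was also counted outside the red cell barcodes. In the library labelled knockout it made up 0.591% of the UMIs of 1204 mesenchymal-gated barcodes, 0.226% in 58 acinar-gated, 1.05% in 73 macrophage-gated and 0.951% in 126 endothelial-gated barcodes. In the library labelled control it made up 0.431% in 978 mesenchymal-gated, 0.204% in 31 acinar-gated, 0.0692% in 71 macrophage-gated and 0.342% in 183 endothelial-gated barcodes. Without barcodes of over 5% globin, the mesenchymal-gated share was 0.101% (knockout) and 0.0664% (control), and the endothelial-gated share 0.0794% (knockout) and 0.0462% (control). The macrophage-gated barcodes over 5% numbered 4 (knockout) and 0 (control), and without them the share was 0.0859% (knockout) and 0.0692% (control). No acinar-gated barcode of either library was over 5%, so their shares stand as given.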

How the data were processed

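The counts deposited by the authors are whole-number UMIs per gene and barcode, per the file headers from Cell Ranger 3.0.0; the submitters' processing notes also name Seurat 2 and 3 and GRCm38/mm10. Library depth and barcode numbers stand in the report. UMIs were summed over red cell barcodes and divided by non-globin UMIs (CPM). Other barcodes had at least 500 genes and were not red cell barcodes. Genes with at least 50 UMIs were compared, and past 2-fold was called; no test across animals was possible. Intervals (95%) are Clopper-Pearson, Katz, exact Poisson or exact conditional binomial. Named genes were the 15 most abundant per library, the 20 most enriched, the 10 highest and 10 lowest ratios by the bound nearest 1 among genes at least 2-fold above other barcodes in 1 library or more (without mitochondrial, ribosomal protein, Xist, Tsix and Y-linked genes), up to 6 per list in 20 lists, the globins and Dpy30. Members and lists were chosen with earlier results of these data known. On counts simulated for 510 genes, the intervals held 94.4% of unaltered ratios. The tools were pandas 2.3.3, SciPy 1.17.1, NumPy 2.4.6, Biopython 1.88 and matplotlib 3.10.9 under Python 3.11.15. The authors' deposited table of clusters was not used here. A few genes within these rules are not reported here.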

Additional observations from a re-analysis of the deposited data

How the results depend on the processing

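Of 58 ratios under alternative settings, 33 stayed inside the interval of the reported ratio, 20 left it in the same direction and 5 changed direction; of 20 counts of genes 11 stayed within 1.5 times. Of all these, 5 come from settings chosen after seeing the data. Ratios here are knockout over control. A change of direction means that the ratio crossed 1, which the interval of the reported mitochondrial ratio already included. With globin over 30% the ratio was 1.06 for mitochondrial, which changed direction, 2.37 for acinar and 0.756 for Malat1, with 110 genes past 2-fold between libraries (77 higher, 33 lower) and 167 past 2-fold against other barcodes. With globin over 80% it was 0.461 for embryonic, 0.855 for mitochondrial and 2.13 for acinar; over 90% it was 0.0692, 0.756 and 2.17, and 0.774 for Malat1. Under 500 genes it was 1.02 for mitochondrial and 1.03 for Malat1, both of which changed direction, and 2.03 for acinar. From 1000 UMIs it was 1.14 for Hbb-bt, 0.965 for alpha and 0.455 for embryonic. As a mean over barcodes it was 1.22 for Hbb-bt, 0.994 for alpha, 0.737 for mitochondrial, 2.09 for acinar and 1.37 for embryonic, which changed direction. With equal weight per depth band it was 1.17 for Hbb-bt and 0.995 for alpha. Without the 4 most mitochondrial barcodes it was 0.790, and without embryonic-led barcodes the embryonic ratio was 4.07, which changed direction. With all UMIs as total, 84 genes passed 2-fold between libraries (79 higher, 5 lower) and 480 against other barcodes; with a minimum of 20 UMIs 165 (144 higher, 21 lower) and 526 (235 above, 291 below), and of 200 UMIs 13 (9 higher, 4 lower) and 128. In barcodes of at least 4000 UMIs and under 500 genes, 23 genes passed 2-fold between libraries. Apart from settings that left barcodes or genes out, the cause was not tested. No paired analysis was possible because each group has 1 library. At 84 and 79 non-globin UMIs per median barcode (knockout, control), genes can be read only from sums.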
